A study of Mus musculus with 2 samples.

Results

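The EGF ligands and ERBB receptors were followed as 10 genes chosen by symbol, 6 ligand genes (Egf, Areg, Hbegf, Tgfa, Btc and Ereg) and 4 receptor genes (Egfr, Erbb2, Erbb3 and Erbb4), out of 25810 named genes in each deposited table. Poly(A) RNA was sequenced from epithelial cells of the inguinal mammary glands of mouse dams at lactation day 3, in 1 library from wild-type (WT) females and 1 from females without Igfbp7 (Igfbp7-/-), a secreted protein that binds insulin-like growth factors. Cells carrying CD45, Ter119 or an antigen that the methods give as CD31, which marks endothelium, and the labels as CD35 had been removed with magnetic beads from both preparations. The Igfbp7-/- allele is a deletion of the first coding exon in every cell of the animal and not in the epithelium alone. Stroma and epithelium therefore both carried it. The litters of Igfbp7-/- dams were described as smaller. For histology the paper also reduced WT litters to a comparable size. Whether this was done for the sequenced WT dams was not given in the sources used here. The labels give the background as C57BL/6 and the methods as CD1, and the age of the dams and the number of animals behind a library were not given in the sources used here.

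EGF family ligands are made as membrane-anchored precursors, cut free by ADAM proteases, and bind ERBB receptors, which are receptor tyrosine kinases that pair with each other. Egf, Areg and Tgfa bind Egfr, while Hbegf, Btc and Ereg bind both Egfr and Erbb4. Erbb2 has no ligand of its own and acts as the preferred partner of the others, and Erbb3 binds neuregulins but has little kinase activity of its own. In the mammary gland amphiregulin is the ligand through which oestrogen drives duct growth, epidermal growth factor is secreted into milk, and Erbb4 is needed for full lobuloalveolar differentiation in pregnancy and lactation.

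The library totals were 34327854 reads (WT) and 35016847 reads (Igfbp7-/-), of which 82.4% and 72.3% lay on listed genes. Igfbp7 had 5224 reads, or 152.2 RPM (reads per 1000000 reads of the library total), in WT and 37 reads, or 1.06 RPM, in Igfbp7-/-. With 1 library per genotype there was no replicate check and no test, so each ratio below describes this pair of libraries, and its interval is a 95% Clopper-Pearson interval on read pairs that covers counting error only. Log2 ratios are of RPM plus 0.1, Igfbp7-/- over WT, and a gene was counted as higher or lower at a ratio of at least 1.5. The interval leaves the 0.1 RPM out. Levels of different genes were compared only per length, as RPKM, the RPM divided by the gene length in kilobases.

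Of the 10 genes, 9 had at least 1 RPM in one library, and betacellulin (Btc) did not. Of the 9, 4 were higher in Igfbp7-/- (Areg, Erbb2, Erbb3 and Erbb4), 2 were lower (Egf and Ereg), and 3 differed by less than 1.5 times (Hbegf, Tgfa and Egfr). Erbb4 met the minimum through the Igfbp7-/- library alone. Among all 14026 genes that met the same minimum, 21.4% were higher and 23.0% were lower. The median log2 ratio was 0.10 over the 5 ligands that met the minimum and 1.61 over the 4 receptors, beside 0.03 over all genes, and that of the receptors was 1.15 without Erbb4.

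**Figure D1:**
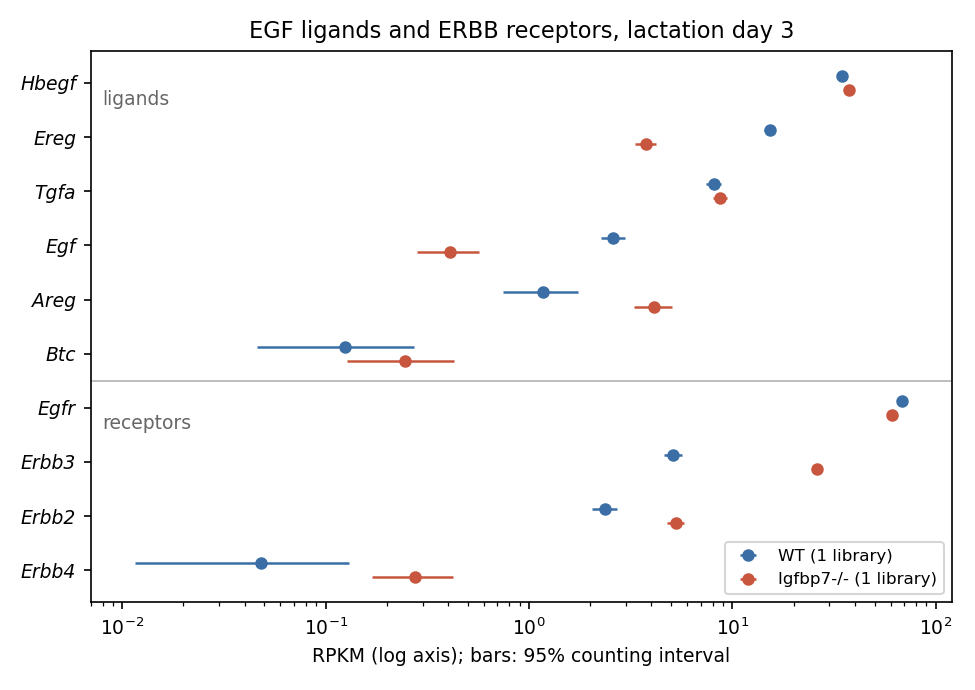
Level of each ligand and receptor gene as RPKM on a log axis, blue for the WT library and red for the Igfbp7-/- library, with 95% counting intervals as bars. Egfr and Hbegf lead their class in both libraries, at 68.0 and 34.6 RPKM in WT, whereas the Erbb3 points lie apart at 5.12 and 26.2 RPKM.

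Amphiregulin (Areg) was the only one of the 5 ligand genes past the minimum that was higher in Igfbp7-/-. It had 48 reads (1.40 RPM) in WT against 172 (4.91 RPM) in Igfbp7-/-. The log2 ratio was 1.74, a 3.35-fold difference with a log2 interval of 1.15 to 2.53, and 2.4% of all genes had a ratio at least as high. The gene lies on chromosome 5 (NCBIM37, chr5:91568641-91577458, plus strand), in a run of ligand genes that starts with Epgn, which encodes epigen, another Egfr ligand. Epgn had 2.91 RPM in WT against 9.17 RPM in Igfbp7-/-, a log2 ratio of 1.62 with an interval of 1.19 to 2.14. Since both ligands of this run with a higher level have a promoter entry in RefSeq (GRCm38.p6), the 250 bases before each start are shown, 5′ to 3′ on the plus strand, at chr5:91139349-91139598 for Areg and chr5:91027267-91027516 for Epgn. Capitals mark matches to 3 of the 5 motifs searched.
Areg: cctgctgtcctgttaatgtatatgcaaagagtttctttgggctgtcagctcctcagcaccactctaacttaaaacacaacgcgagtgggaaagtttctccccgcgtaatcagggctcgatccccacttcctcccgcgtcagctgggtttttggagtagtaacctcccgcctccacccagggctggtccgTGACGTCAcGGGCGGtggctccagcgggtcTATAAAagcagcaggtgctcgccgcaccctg
Epgn: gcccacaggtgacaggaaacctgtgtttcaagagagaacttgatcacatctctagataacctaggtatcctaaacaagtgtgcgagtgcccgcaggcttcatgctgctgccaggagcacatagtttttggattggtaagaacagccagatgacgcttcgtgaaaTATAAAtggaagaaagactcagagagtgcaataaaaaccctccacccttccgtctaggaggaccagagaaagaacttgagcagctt

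In the Areg sequence the capitals are the cAMP response element TGACGTCA, 61 to 54 bases before the start, the SP1 site GGGCGG, 52 to 47 bases before it, and the TATA box TATAAA, 31 to 26 bases before it. The capitals in the Epgn sequence are the TATA box, 86 to 81 bases before the start. Of 32851 promoter entries of the same length, 1.55% held the cAMP response element on either strand, 12.4% the TATA box and 32.7% the SP1 site. Among the 7 ligand and receptor genes with an entry (Areg, Btc, Egf, Egfr, Erbb2, Erbb4 and Tgfa), the cAMP response element and the TATA box were found in Areg alone, and the SP1 site in Areg, Egfr and Tgfa. The AP-1 site TGANTCA, held by 6.75% of entries, and the STAT site TTCNNNGAA, held by 7.02%, were found in none of these 7 or in Epgn. A match is a run of letters and was not measured as a bound site.

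Epiregulin (Ereg), whose gene lies between Epgn and Areg (NCBIM37, chr5:91503643-91522675, plus strand), went the other way. It had 2168 reads (63.2 RPM) in WT against 544 (15.5 RPM) in Igfbp7-/-. The log2 ratio was -2.02, with an interval of -2.22 to -1.83, which is 4.05-fold lower in Igfbp7-/-, and 3.8% of all genes were at least as low. Ereg and Areg start 65 kb apart on the same strand, and no other protein-coding gene is annotated within the 375.4 kb from the start of Epgn to that of Btc. Btc, at the far end (NCBIM37, chr5:91786287-91831939, minus strand), had 12 reads (0.35 RPM) in WT against 24 (0.69 RPM) in Igfbp7-/-, and its interval of -0.55 to 2.67 on the log2 scale includes no difference. Along this run the neighbours therefore alternated, with Epgn and Areg higher, Ereg between them lower, and Btc not resolved at this depth.

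**Figure D2:**
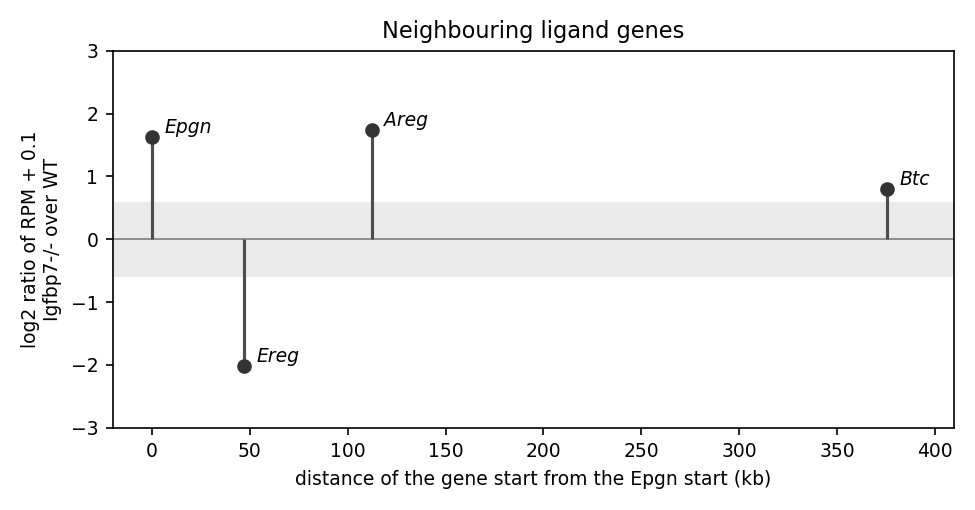
Log2 ratio (RPM plus 0.1, Igfbp7-/- over WT) of the 4 neighbouring ligand genes against the distance of each gene start from that of Epgn, with the band of less than 1.5 times in grey. Epgn (1.62) and Areg (1.74) stand above the band and Ereg (-2.02) below it, and Btc rests on 12 and 24 reads.

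Epidermal growth factor itself (Egf; NCBIM37, chr3:129380493-129458240, minus strand) had the lowest ratio of the ligands. It had 422 reads (12.3 RPM) in WT against 68 (1.94 RPM) in Igfbp7-/-. The log2 ratio of -2.60, with an interval of -3.23 to -2.14, is 6.07-fold lower, and 1.85% of all genes were at least as low. Milk protein genes were also lower in the Igfbp7-/- library: 9 genes of milk-secreting cells (caseins, Wap, Lalba and others) summed to 140000 RPM in WT against 53820 RPM in Igfbp7-/-, and 7 of the 9 were lower and none higher. Their part in the Egf result was not tested. In RNA from mixed cells, fewer cells of a type and less RNA per cell cannot be told apart.

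The other ligand genes with a resolved level, Hbegf and Tgfa, were close in both libraries. Hbegf, which encodes heparin-binding EGF-like growth factor, had 2840 reads (82.7 RPM) in WT against 3139 (89.6 RPM) in Igfbp7-/-, a log2 ratio of 0.12 with an interval of 0.01 to 0.22. Tgfa, which encodes transforming growth factor alpha (NCBIM37, chr6:86145420-86225151, plus strand), had 1175 reads (34.2 RPM) and 1282 reads (36.6 RPM), a log2 ratio of 0.10 with an interval of -0.07 to 0.26. Counting error alone bounds both differences below 1.2-fold at this scaling. The sign of both turned when the 20 most abundant genes were left out of the total, with -0.03 for Hbegf and -0.05 for Tgfa. With totals of reads on listed genes both log2 ratios lay above their intervals, at 0.30 for Hbegf and 0.28 for Tgfa.

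**Figure D3:**
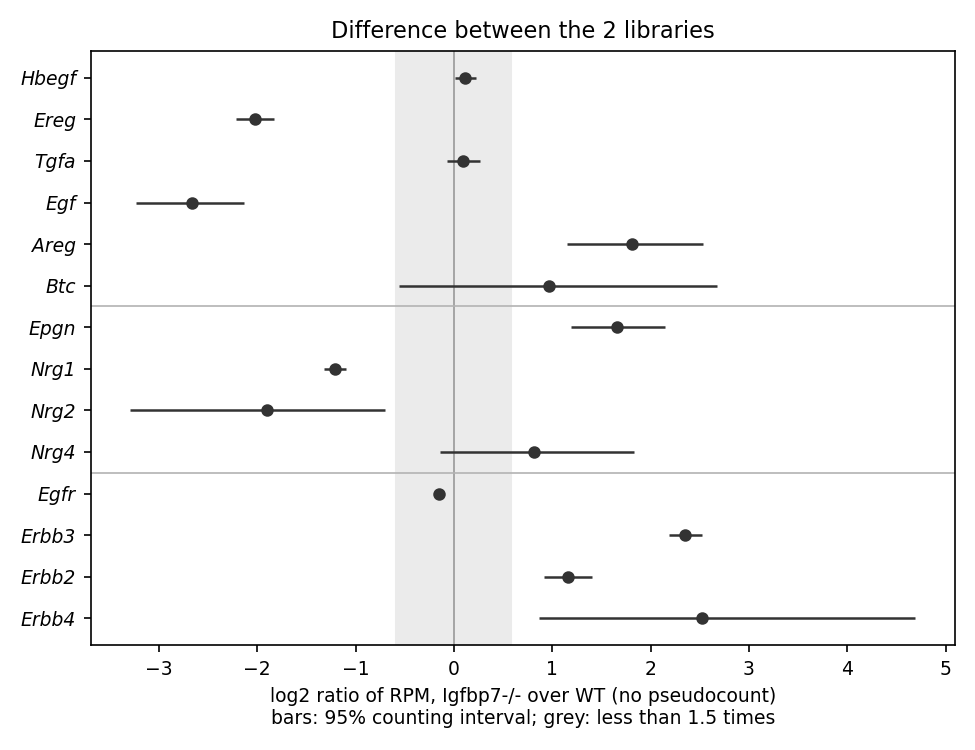
Log2 ratio of RPM, Igfbp7-/- over WT, without the added 0.1 RPM, for the 6 ligand genes, 4 other EGF family ligands and 4 receptor genes, with 95% counting intervals as bars and the band of less than 1.5 times in grey. The points of Areg, Epgn, Erbb3, Erbb2 and Erbb4 lie right of the band and those of Egf, Ereg, Nrg1 and Nrg2 left of it. The points of Btc and Nrg4 also lie right of it, but their bars cross 0, as does the bar of Tgfa.

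Among the receptors, Egfr, the receptor of all 6 ligands, was the gene with the most reads of the 10 and differed little. It had 13958 reads (406.6 RPM) in WT against 12824 (366.2 RPM) in Igfbp7-/-. The log2 ratio was -0.15, with an interval of -0.20 to -0.10, and it became 0.04 when the totals were replaced by the reads on listed genes. The gene spans chr11:16652206-16818161 on the plus strand (NCBIM37). A gene-level count does not separate the full-length receptor from shorter, soluble forms made from the same gene.

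The other 3 receptor genes were all higher in Igfbp7-/-. Erbb3 (NCBIM37, chr10:128004579-128026708, minus strand) had the highest ratio of the 10 genes with 0.1 RPM added. It had 706 reads (20.6 RPM) in WT against 3684 (105.2 RPM) in Igfbp7-/-, a log2 ratio of 2.35 with an interval of 2.19 to 2.52. This is a 5.10-fold difference, and 0.984% of all genes were at least as high. By RPKM, Erbb3 held place 6648 in WT and place 1736 in Igfbp7-/- among the 25127 genes with an RPKM.

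Erbb2 (NCBIM37, chr11:98273784-98299030, plus strand) had 405 reads (11.8 RPM) in WT against 921 (26.3 RPM) in Igfbp7-/-. Its log2 ratio was 1.15, with an interval of 0.92 to 1.40, a 2.22-fold difference that 7.01% of all genes reached. Erbb4 (NCBIM37, chr1:68078760-69154633, minus strand) had 7 reads (0.20 RPM) in WT against 41 (1.17 RPM) in Igfbp7-/-. Its log2 ratio was 2.06 with the added 0.1 RPM and 2.52 without it, and the interval of the latter, from 0.87 to 4.69, is wide at this depth. With 1 RPM added in place of 0.1 it was 0.85, so the size of this ratio rests on the amount added.

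Markers of cell types also differed between the libraries. The luminal keratin list (Krt8, Krt18, Krt19, Krt7 and Epcam) summed to 979.3 RPM in WT against 2865 RPM in Igfbp7-/-, with 4 of 5 genes higher. The hormone-sensing luminal list includes the oestrogen receptor gene Esr1 and the progesterone receptor gene Pgr. It summed to 13.9 and 41.9 RPM, with all 6 genes that met the minimum higher. Pgr (0.93 and 5.6 RPM) met the minimum through the Igfbp7-/- library alone. Of the 8 genes listed, Cited1 (0.64 and 0.71 RPM) and Tnfsf11 (0.233 and 0.057 RPM) did not meet it. The luminal progenitor list summed to 794.6 and 1144 RPM, with 2 of 6 genes higher (Aldh1a3 and Ehf) and none counted as lower. Of these sums Cd14, which was not counted as higher, made up 469.9 and 677.4 RPM. Elf5 (137.3 and 95.9 RPM) and Itga2 (38.7 and 33.5 RPM) went the other way, so this list had no common direction. The sums of the luminal lists were higher in the same library as Areg, Erbb2, Erbb3 and Erbb4, and their part in those results was not tested.

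Basal and myoepithelial markers summed to 3785 RPM in WT against 1203 RPM in Igfbp7-/-, with 8 of 9 genes lower. Other lists had lower sums too, with none of their genes counted as higher. Fibroblast markers summed to 9060 and 4582 RPM (4 of 6 genes lower), although Pdgfra had 97.0 and 132.8 RPM. Endothelial markers summed to 1181 and 360.3 RPM. Dendritic and Langerhans markers summed to 779.7 and 85.4 RPM, with all 6 genes that met the minimum lower. Adipocyte markers summed to 579.6 and 193.4 RPM, of which Fabp4 alone had 543.5 and 173.4 RPM, and 3 of the 4 that met the minimum were lower. Macrophage markers summed to 150.9 and 65.1 RPM (4 of 6 lower) and lymphocyte markers to 61.6 and 22.8 RPM (5 of 6 lower). All 6 endothelial genes were lower, and Pecam1, which encodes CD31, had 322.5 RPM in WT against 88.9 RPM in Igfbp7-/-. These sums were lower in the same library as Egf and Ereg, and their part in those results was not tested. The 3 markers of the erythroid lineage, which Ter119 marks, that met the minimum summed to 888.5 and 997.3 RPM, with none higher and none lower. Schwann cell markers (135.7 and 152.4 RPM) and skin keratinocyte markers (6.23 and 16.1 RPM, with Krt2, Flg and Ivl at 0 in both) had no common direction over the genes that met the minimum.

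Within a library, levels per length gave an order of the receptors that was the same in both genotypes. In WT the RPKM was 68.0 for Egfr, 5.12 for Erbb3, 2.36 for Erbb2 and 0.048 for Erbb4, and in Igfbp7-/- it was 61.2, 26.2, 5.26 and 0.275. No counting intervals of neighbours in this order overlapped. Egfr made up 90.0% of the summed receptor RPKM in WT and 65.9% in Igfbp7-/-, and Erbb3 made up 6.78% and 28.2%. Erbb2 made up 3.13% and 5.66%. The sum over the 4 genes was 75.5 RPKM in WT and 92.9 RPKM in Igfbp7-/-.

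The order of the ligands differed between the libraries. In WT it ran, in RPKM, from Hbegf (34.6) through Ereg (15.3), Tgfa (8.09), Egf (2.58) and Areg (1.17) to Btc (0.125), with no overlap of counting intervals between neighbours. In Igfbp7-/- it ran from Hbegf (37.5) through Tgfa (8.66), Areg (4.10), Ereg (3.76) and Egf (0.408) to Btc (0.245), where the intervals of Areg and Ereg overlapped, as did those of Egf and Btc. Ereg thus made up 24.7% of the summed ligand RPKM in WT and 6.87% in Igfbp7-/-, Egf 4.18% and 0.747%, and Areg 1.89% and 7.50%. Hbegf held the largest share in both, 55.9% in WT and 68.6% in Igfbp7-/-, and the sum was 61.8 and 54.6 RPKM.

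**Figure D4:**
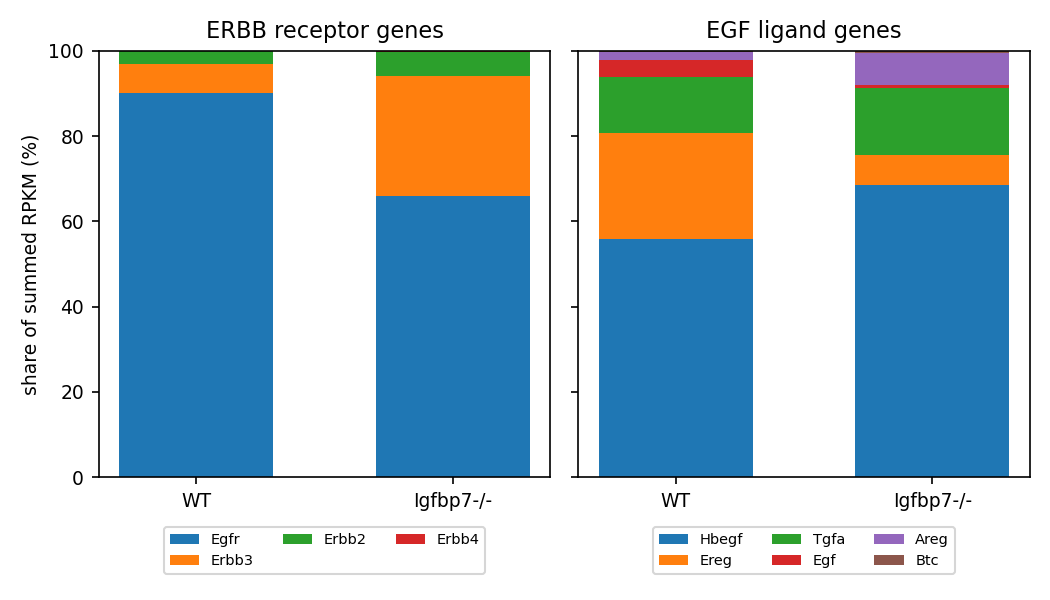
Share of each gene in the summed RPKM of the 4 receptor genes (left) and of the 6 ligand genes (right), in percent, for the WT and the Igfbp7-/- library. The Egfr block takes 90.0% in WT and 65.9% in Igfbp7-/-, the Erbb3 block 6.78% and 28.2%, and the Ereg block 24.7% and 6.87%.

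Of the neuregulins, which bind Erbb3, Erbb4 or both, Nrg1 and Nrg2 were lower in Igfbp7-/- and Nrg4 passed 1.5 times in the other direction. Nrg1 had 4294 reads (125.1 RPM) in WT against 1900 (54.3 RPM) in Igfbp7-/-, a log2 ratio of -1.20 with an interval of -1.32 to -1.09. Its level of 59.5 RPKM in WT was above that of Hbegf, the first of the 6 ligands, and its 25.8 RPKM in Igfbp7-/- was below it. The gene makes many isoforms that these counts do not separate.

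Nrg2 had 55 reads (1.60 RPM) in WT against 15 (0.43 RPM) in Igfbp7-/-, a log2 ratio of -1.69 with an interval of -3.29 to -0.70. Nrg4, a ligand of Erbb4, had 30 reads (0.87 RPM) and 54 (1.54 RPM), a log2 ratio of 0.75 whose interval, -0.14 to 1.83, includes no difference. Nrg2 met the minimum through the WT library alone and Nrg4 through the Igfbp7-/- library alone. Nrg3 had 0 reads in both libraries. Counted on single reads, this allows up to 0.0874 RPM in WT and up to 0.0857 RPM in Igfbp7-/- (3 reads). On read pairs, the unit of the intervals here, it would allow more. Erbb3 was thus 5.10-fold higher in the library in which Nrg1, which encodes a ligand of it, was 2.30-fold lower. The sums of the cell type markers given above also differed between these libraries, and their part in either result was not tested.

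Around the receptors, 83 further genes of the pathway were read in 6 lists, of which 82 met the minimum. Of these, 16 (19.5%) were higher, 7 (8.54%) were lower and 59 differed by less than 1.5 times, with a median log2 ratio of 0.07. Over all genes the shares were 21.4% higher and 23.0% lower, with a median of 0.03. With at least 1 RPM required in both libraries, 15 pathway genes were higher and 6 lower, beside 19.9% and 20.1% of all genes.

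In the list of 9 ligand release genes, 2 were higher (22.2%) and 1 was lower (11.1%), beside 21.4% and 23.0% of all genes. Rhbdf1 and Rhbdf2, which encode the inactive rhomboids that help Adam17 to mature and choose its substrates, had 36.0 and 70.1 RPM in WT against 84.9 and 113.6 RPM in Igfbp7-/-, log2 ratios of 1.24 and 0.70. Cnih, a cargo receptor of the early secretory pathway, had 45.2 and 26.3 RPM, a log2 ratio of -0.78. Adam17, the main sheddase of Areg, Hbegf, Ereg and Tgfa, had 74.7 and 89.7 RPM, a log2 ratio of 0.26, and was named after its value was seen.

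Of 28 adaptors and kinases that relay the receptor signal, 24 differed by less than 1.5 times. The 3 higher genes were 10.7% and the 1 lower gene 3.57%, beside 21.4% and 23.0% of all genes. Pik3cb, a catalytic subunit of PI3 kinase, which Erbb3 recruits through its regulatory subunit, had 27.6 RPM in WT against 87.1 RPM in Igfbp7-/-, a log2 ratio of 1.66. The kinase gene Src had 63.6 and 113.9 RPM, a log2 ratio of 0.84, and Ksr1, a scaffold of the RAF, MEK and ERK kinases, had 24.8 and 11.1 RPM, a log2 ratio of -1.15.

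Of 16 genes that inhibit or turn over the receptors, 4 were higher, which is 25% beside the 21.4% of all genes. None was lower, beside 23.0% of all genes. Errfi1, whose product binds and blocks the kinase domain of ERBB receptors, had 1219 RPM in WT against 2573 RPM in Igfbp7-/-, a log2 ratio of 1.08. Cbl, the ubiquitin ligase that marks Egfr for breakdown, had 20.9 and 46.2 RPM, a log2 ratio of 1.14.

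Among 17 feedback and target genes of ERK, the kinase at the end of the relay, 3 were higher (17.6%) and 2 were lower (11.8%). The shares over all genes were 21.4% and 23.0%. Myc had 107.6 RPM in WT against 335.6 RPM in Igfbp7-/-, a log2 ratio of 1.64, and Egr1 had 389.2 and 730.3 RPM, a log2 ratio of 0.91. The opposite held for the feedback inhibitor Spry4, with 158.3 and 72.8 RPM and a log2 ratio of -1.12, and for Fosl1, with 87.7 and 55.3 RPM and a log2 ratio of -0.67. The list therefore had no common direction, and its median log2 ratio was -0.16.

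The largest ratio in the 6 lists was that of Muc4, one of 8 membrane partners of ligands and receptors, a mucin that binds Erbb2 at the cell surface. Muc4 had 2195 reads (63.9 RPM) in WT against 27420 (783.1 RPM) in Igfbp7-/-, a log2 ratio of 3.61 with an interval of 3.53 to 3.70, which is 12.2-fold higher. Itgb4, the integrin chain of hemidesmosomes, which also associates with ERBB receptors, had 29.9 and 87.9 RPM, a log2 ratio of 1.55. Cd44, a hyaluronan receptor with heparan sulphate forms that bind Hbegf, had 773.4 and 346.9 RPM, a log2 ratio of -1.16. The other 5 genes differed by less than 1.5 times, all with a ratio below 0 on the log2 scale, and the median of the list was -0.31.

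**Figure D5:**
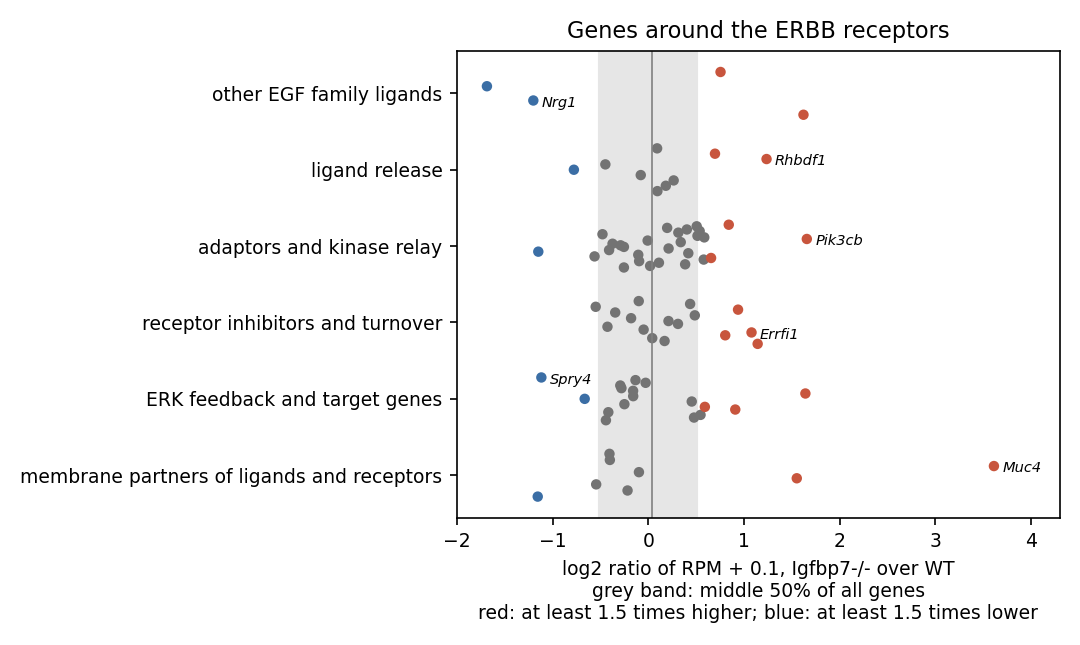
Log2 ratio (RPM plus 0.1, Igfbp7-/- over WT) of the 82 pathway genes that met the minimum, 1 point per gene, by list, with the middle 50% of all genes as a grey band. Of these points 16 are red (higher) and 7 blue (lower), and Muc4 (3.61) stands farthest from the band.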

How the data were processed

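Per the methods, the authors sequenced poly(A) RNA on a SOLiD instrument as paired ends of 35 and 75 bp and mapped it with a Bowtie pipeline in GeneSifter. The submitters' processing notes name mm9 (NCBIM37), Bowtie 0.12.3 and SAMtools 0.1.15, while the methods name a human build. The gene annotation and the treatment of multi-mapping reads were not given in the sources used here. The deposited tables give, for each gene, a raw read count made by the authors, an RPM (the count over a fixed library total of 34327854 or 35016847 reads) and an RPKM (that RPM over the gene length they chose). Since that total includes reads off the listed genes, a larger unlisted share lowers every RPM of a library.

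Ratios were computed from the deposited RPM with 0.1 RPM added, for genes reaching 1 RPM in either library, and counted at 1.5 times. Of the counts between 1 and 20, 75.8% (WT) and 74.1% (Igfbp7-/-) were even, so Clopper-Pearson and exact Poisson intervals were put on read pairs. They cover counting error only. TMM factors (edgeR 4.0.16) and median-of-ratios size factors (DESeq2 1.42.0) served only as other scalings. Python 3.11.15, scipy 1.17.1 and R 4.3.3 were used, and the intervals were tested on simulated data. Gene coordinates are from the mouse annotation of NCBIM37, promoters from RefSeq on GRCm38.p6. The members and lists were chosen with earlier results of these data known. Named genes were the 10 members, Igfbp7, every other EGF family ligand and, in each other pathway list, the 2 highest and 2 lowest ratios past 1.5 times among genes reaching 10 RPM in either library. The 50 rows without a gene symbol (0.0495% and 0.067% of listed reads) were left out, and 1 marker gene is not reported here.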

Additional observations from a re-analysis of the deposited data

Results flagged for a closer look

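Reads on rows without a gene symbol entered no comparison. These 50 rows held 13989 reads in the WT library and 16958 reads in the Igfbp7-/- library. Both are above the 3 reads that a count of 0 allows on single reads.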

How the results depend on the processing

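Another scaling moved the median log2 ratio of all genes from 0.03 to 0.22 with totals of reads on listed genes (30.6% higher, 18.6% lower) and to -0.12 without the 20 most abundant genes (16.6% and 28.1%). Areg, Erbb2, Erbb3 and Erbb4 were higher and Egf and Ereg lower under both, with TMM and size factors, and at a threshold of 2. With reads on listed genes the log2 ratios were 0.30 for Hbegf, 0.28 for Tgfa, 0.037 for Egfr and 2.54 for Erbb3, and 28 pathway genes were higher. Without the 20 most abundant genes they were -0.027 for Hbegf and -0.29 for Egfr, and 13 pathway genes were lower. With 1 RPM added the log2 ratio of Erbb4 was 0.851, below its interval. Of the higher and lower pathway genes, Rhbdf2, Fosl1 and Gab2 each lost their call under 1 of the scalings tried and Etv4 under 3. All of these kept their sign, and Etv4 rests on 49 and 77 reads. With at least 10 RPM in one library 2 ligand and receptor genes were higher (Erbb2 and Erbb3), since fewer genes met the minimum, and at a threshold of 2 there were 8 higher pathway genes. Of 97 alternative ratios of the ligand and receptor genes 90 lay within the counting interval of the ratio and 7 outside it. None that was called changed sign. Some of the 97 came from settings that changed only the minimum or the interval, which cannot move a ratio. The 90 therefore include ratios that had to stay the same.

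With the longest annotated transcript as length, Egfr held 87.3% of the receptor sum in WT and 61.1% in Igfbp7-/-, Erbb3 7.49% and 29.8%, and Hbegf 67.4% of the ligand sum in Igfbp7-/-. Not divided by length, the WT and Igfbp7-/- shares were 92.6% and 73.4% for Egfr, 4.68% and 21.1% for Erbb3, 42.6% and 60% for Hbegf and 32.5% and 10.4% for Ereg. The direction of each of these shares between the libraries was as in the report. No paired analysis was possible because each genotype has 1 library, which also leaves no replicate to leave out. Depth limits Btc, Erbb4, Nrg2 and Nrg4, whose intervals are wide.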
